A study of Mus musculus with 8 samples.

Results

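The 34 genes described here encode the folding, quality control and protein entry machinery of the endoplasmic reticulum (ER), with the sensors and the transcription factor that adjust it. They were taken by symbol from a table of 45232 genes, and all 34 had counts and entered the test, which covered 11862 genes. RNA was sequenced in bulk from CD8+ T cells of OT-I mice, a transgenic strain with 1 T cell receptor, specific for SIINFEKL of ovalbumin. The control group of 4 libraries came from cells activated with that peptide and kept for 5 days with IL-2 in RPMI with 10% FBS. The other group of 4 libraries received the same activation, IL-2, serum and time, with 470 µM o-phosphoethanolamine (pEtn) in the medium. pEtn is an intermediate of phosphatidylethanolamine synthesis, and the comparison asks what it does to the transcripts of activated CD8 T cells. Whether a numbered library is a mouse, a culture or a repeat of the same cells is not stated in the labels, nor is the age of the mice, so p-values measure only the spread between these libraries, which may be technical.

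As background, secreted and membrane proteins enter the ER through the Sec61 channel, lose their signal peptide and fold with the help of chaperones and disulfide isomerases. Proteins that fail to fold are drawn back to the cytosol and degraded, a route called ER-associated degradation (ERAD). When unfolded proteins build up, the membrane sensors IRE1 (gene Ern1), ATF6 and PERK (gene Eif2ak3) start the unfolded protein response, in which cleaved ATF6 and the factor made from spliced Xbp1 mRNA raise the transcription of chaperone and ERAD genes. Activated T cells expand this machinery while they grow and make cytokines and granule proteins.

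With pEtn, the ER genes as a whole kept levels close to those in RPMI, and the gene of a sensor departed from the rest. Atf6 mRNA was 2.02-fold lower with pEtn, in 4 of 4 replicate numbers. Os9, a lectin of ERAD, was 1.35-fold higher, also in 4 of 4. Replicates 3 and 4 of a medium were much alike, so 4 of 4, here and below, may hold fewer than 4 independent comparisons. The share of all genes with 4 of 4 was not counted. The other 32 genes were not called in the fit without a replicate block, among them the chaperone genes Hspa5 and Hsp90b1, the factor Xbp1 and the sensor Ern1. Called here means a Benjamini-Hochberg adjusted p under 0.05 in edgeR's quasi-likelihood test over all genes. That share, 1 gene higher and 1 lower of 34, stood against 12.8% of all genes tested, of which 5.22% were higher and 7.56% lower. DESeq2 also called 1 higher and 1 lower, against 8.21% and 10.9% of all genes (19.1% in either direction). With the replicate number as a block in the edgeR fit, 5 of the 32 were called as well (Dnajc3, Edem1, Sel1l and Derl2 higher, Hyou1 lower), where 32.3% of all genes were called. The median log2 fold change of the 34 genes was 0.00, against 0.02 over all genes tested. The log2 fold change was within ±0.5 for 33 of the 34 genes and for 79.1% of all genes tested. The 95% interval of the log2 fold change lay inside a 2-fold change in either direction for 33 of the 34 genes, Atf6 being the exception, and for 75.0% of all genes tested. Bulk counts cannot tell fewer cells of a type from less RNA per cell, and gene counts do not separate spliced from unspliced Xbp1 or cleaved from whole ATF6 protein.

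**Figure D1:**
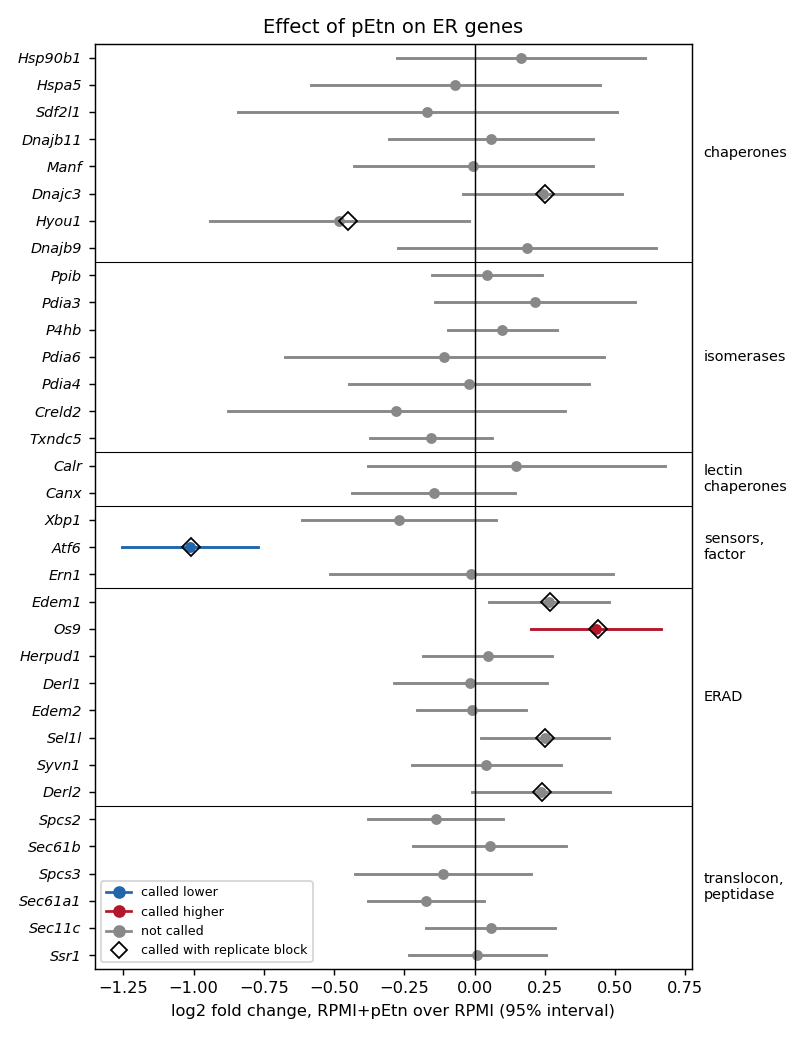
Log2 fold change of RPMI+pEtn over RPMI (x axis) for the 34 genes by role (y axis). Points are edgeR estimates, lines their 95% intervals, blue and red the called genes, and open diamonds genes called with the replicate number as a block. Atf6 at -1.01 stands left of all others and Os9 at 0.43 is the rightmost.

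Atf6 (ENSMUSG00000026663) encodes the sensor that travels to the Golgi under stress, is cleaved there and enters the nucleus as a transcription factor. Its level (CPM, the counts scaled to library size after TMM) was 126, 137, 158 and 162 in RPMI replicates 1 to 4 and 64.9, 73.1, 78.0 and 73.3 with pEtn. The media did not overlap, and the lowest RPMI library stood above every pEtn library by a wide margin. The mean went from 146 ± 17.3 to 72.3 ± 5.42 CPM (SD, n = 4), a log2 fold change of -1.01 (SE 0.11, 95% interval -1.26 to -0.77, edgeR adjusted p = 0.00103). Within replicate numbers 1 to 4 the log2 difference was -0.95, -0.90, -1.02 and -1.14. The call held in each of 8 fits that left out a library (highest adjusted p = 0.00608) and with replicates 3 and 4 summed (0.0164). In replicates 1 and 2 alone the log2 fold change was -0.95 with an adjusted p of 0.0664. No exon of Atf6 overlaps an exon of another gene in GENCODE M21.

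Ern1, whose product IRE1 splices Xbp1 mRNA, was the least abundant of the 34 genes per length. It stood at 17.0, 20.8, 14.5 and 12.5 CPM in RPMI and at 18.1, 21.8, 12.4 and 11.99 CPM with pEtn. The media overlapped fully, and replicates 1 and 2 were above 3 and 4 in both (log2 fold change -0.01, 95% interval -0.52 to 0.49, edgeR adjusted p = 0.982). Xbp1, the mRNA that IRE1 splices, stood at 185, 229.9, 208 and 282 CPM in RPMI and at 169, 234, 163 and 185 CPM with pEtn. Its log2 fold change was -0.27 (95% interval -0.61 to 0.08, edgeR adjusted p = 0.290), and the ranges of the media overlapped. Of the third sensor arm, Eif2ak3 had a mean of 107 ± 10.95 CPM in RPMI and 108 ± 9.35 CPM with pEtn (SD, n = 4; adjusted p = 0.972 by edgeR). Atf4, the factor translated when PERK or a related kinase is active, had 526 ± 105 CPM in RPMI and 403 ± 42.4 CPM with pEtn (SD, n = 4), with an adjusted p of 0.117 by edgeR. Ddit3, which encodes the factor CHOP, had 14.6 ± 2.94 CPM in RPMI and 13.2 ± 4.57 CPM with pEtn (SD, n = 4), with an adjusted p of 0.751 by edgeR. Of 7 genes listed for the PERK arm, edgeR called 0, DESeq2 called 0 and 2 had an unadjusted p under 0.05 (Atf4 and Ppp1r15a). The share of all genes with an unadjusted p under 0.05 was not counted. Such counts, here and below, therefore do not show a departure from all genes. With the replicate block 2 of the 7 were called lower, where 16.5% of all genes were lower. The median log2 fold change of the 7 was -0.38, with 6 below zero, against 5669 of all 11862 genes tested. Among 10 tested genes listed beside ATF6 and IRE1, as partners or related factors, edgeR called 0. An unadjusted p under 0.05 was reached by 2, Mbtps2 lower and Creb3l2 higher. DESeq2 called 1 higher and 1 lower. The proteases that cleave ATF6, named here after their values were seen, went from 109 ± 4.89 to 100.4 ± 5.07 CPM for Mbtps1 and from 35.5 ± 6.35 to 26.1 ± 2.30 CPM for Mbtps2 (SD, n = 4). Neither was called by edgeR (adjusted p = 0.392 and 0.0603), and Mbtps2 was called with the replicate block (adjusted p = 0.00589).

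**Figure D2:**
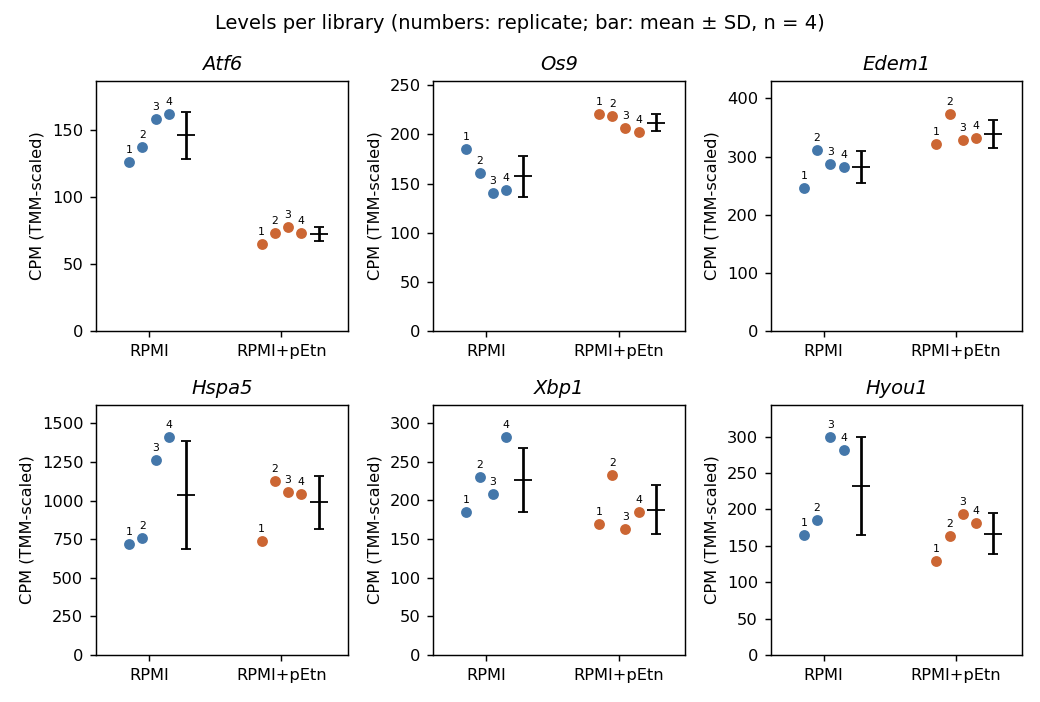
CPM per library (y axis, from 0) of Atf6, Os9, Edem1, Hspa5, Xbp1 and Hyou1 in RPMI and RPMI+pEtn. Points carry their replicate number, and bars are the mean ± SD of 4 libraries. Atf6 lies between 126 and 162 CPM in RPMI and between 64.9 and 78.0 CPM with pEtn, while the Hspa5 values of the media overlap.

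The promoters of several of these genes hold the ER stress response element (ERSE), to which ATF6 binds together with the CCAAT-binding factor NF-Y. They are shown as background to the lower Atf6 mRNA, and ATF6 activity was not measured. In the fit without a block on all 8 libraries, no gene found to carry the element was called. Some of their 95% intervals were wide, such as -0.88 to 0.32 for Creld2. With the replicate number as a block, Dnajc3 was called higher. Fitted on replicates 3 and 4 alone, Hspa5, Pdia6, Creld2 and Canx were called lower and Dnajc3 higher. In that fit 24.7% of all genes were lower and 23.4% higher (48.1% in either direction). Promoter sequences are RefSeq's on GRCm38.p6, 250 bases before to 50 after each start, and 27 of the 34 genes had an entry. Atf6, Hyou1, Manf, Derl1, Sec61a1, Sec11c and Spcs3 had none. Whether Hyou1, called lower with the block, carries the element could therefore not be searched. The element was searched on both strands as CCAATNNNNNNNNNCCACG. It was found in 8 of the 27 genes, against 0.137% of 27025 genes with a promoter entry (37 genes, these 8 included). The matches read as follows in the orientation of the element, with its fixed bases in capitals.
Hspa5: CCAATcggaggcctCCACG
Calr: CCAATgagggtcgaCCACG
Hsp90b1, 212 bases upstream: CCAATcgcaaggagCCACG
Hsp90b1, 107 bases upstream: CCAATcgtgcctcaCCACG
Canx: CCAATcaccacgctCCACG
Pdia6: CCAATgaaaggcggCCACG
Dnajc3: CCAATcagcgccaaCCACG
Creld2: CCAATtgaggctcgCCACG
Syvn1: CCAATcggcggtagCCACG
Distances are from the start to the first base of the match read along the gene. Upstream they were 65 bases in Hspa5, 44 in Syvn1, 98 in Pdia6, 105 in Dnajc3, 126 in Creld2, 145 in Canx and 162 in Calr. The matches of Calr and Creld2 run opposite to the gene, as does that of Hsp90b1 at 107 bases, so there this is the last base printed above. Hsp90b1 held 2 matches, in opposite orientations. The shorter element ERSE-II (ATTGG, any base, then CCACG; both strands) was found in Herpud1, 52 bases upstream, and in Dnajb11, 7 bases past the start, against 0.0444% of all genes with an entry. CCACG alone, which is part of both, was found in 24 of the 27 genes and in 35.5% of all. A match is a description of these letters, not evidence of binding. The 34 genes were picked for their known part in the ER and its stress response, so these shares describe them and are no test of enrichment.

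Whole promoters of Hspa5 (chr2:34771840-34772139, + strand), Hsp90b1 (chr10:86705395-86705694, - strand) and Herpud1 (chr8:94386179-94386478, + strand) are given on GRCm38.p6, 5′ to 3′ along the gene, with ERSE or ERSE-II in capitals.
Hspa5: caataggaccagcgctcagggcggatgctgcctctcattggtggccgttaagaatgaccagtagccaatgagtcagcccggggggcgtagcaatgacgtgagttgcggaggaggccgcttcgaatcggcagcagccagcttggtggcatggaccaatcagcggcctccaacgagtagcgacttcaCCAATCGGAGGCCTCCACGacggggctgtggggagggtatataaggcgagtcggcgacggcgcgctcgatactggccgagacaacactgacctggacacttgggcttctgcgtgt
Hsp90b1: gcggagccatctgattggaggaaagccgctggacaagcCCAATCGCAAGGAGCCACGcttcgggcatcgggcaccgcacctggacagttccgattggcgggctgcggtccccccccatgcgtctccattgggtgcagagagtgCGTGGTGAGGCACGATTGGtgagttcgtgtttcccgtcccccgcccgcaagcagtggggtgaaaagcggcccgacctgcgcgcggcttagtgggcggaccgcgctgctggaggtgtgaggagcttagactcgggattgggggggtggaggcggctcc
Herpud1: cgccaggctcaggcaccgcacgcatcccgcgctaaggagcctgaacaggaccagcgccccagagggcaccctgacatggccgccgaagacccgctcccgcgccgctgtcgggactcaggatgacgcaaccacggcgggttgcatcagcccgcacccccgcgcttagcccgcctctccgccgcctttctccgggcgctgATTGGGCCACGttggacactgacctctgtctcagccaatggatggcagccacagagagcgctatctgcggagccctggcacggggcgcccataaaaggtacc
Of the 8 ERSE-bearing genes of the machinery, edgeR without the block called 0, 0 had an unadjusted p under 0.05 and DESeq2 called 0. Their log2 fold changes ran from -0.28 to 0.24 with a median of -0.01. Of the other 29 genes with the element 8 were tested, of which edgeR called 0, 1 had an unadjusted p under 0.05 and DESeq2 called 0, with a median log2 fold change of 0.09.

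The chaperones bind unfolded chains in the ER lumen, and none of the 8 genes of this type was called by edgeR. An unadjusted p under 0.05 was reached by 1 of them, Hyou1, and DESeq2 called 0. Hspa5 encodes BiP, the HSP70 of the ER, which also holds the sensors inactive. It stood at 721, 755, 1266 and 1409.9 CPM in RPMI and at 738, 1127, 1053 and 1042 CPM with pEtn. The pEtn values all fell inside the RPMI range (log2 fold change -0.07, 95% interval -0.58 to 0.45, edgeR adjusted p = 0.880). Hsp90b1, the HSP90 of the ER, stood at 953, 975, 1299 and 1494 CPM in RPMI and at 893, 1345, 1523 and 1530.1 CPM with pEtn. In both media replicate 1 was its lowest library, and the media overlapped (log2 fold change 0.16, 95% interval -0.28 to 0.60, edgeR adjusted p = 0.638). Other annotated genes overlap 15.7% of its exon bases.

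Hyou1, an HSP70-type protein that renews the nucleotide on BiP, stood at 164, 186, 299 and 282 CPM in RPMI and at 129, 164, 194 and 181 CPM with pEtn. It was lower in 4 of 4 replicate numbers although the ranges of the media overlapped. Its log2 fold change was -0.48 (SE 0.21, edgeR adjusted p = 0.161) and -0.45 with the replicate number as a block (SE 0.09, adjusted p = 0.00773), where it was called. Dnajc3, a DNAJ partner of BiP that also restrains PERK, was higher in 4 of 4 numbers, with 180.4 ± 27.6 CPM in RPMI and 213 ± 21.3 CPM with pEtn (SD, n = 4). It was called with the block (log2 fold change 0.25, SE 0.07, edgeR adjusted p = 0.0267) and not without it (0.244). The remaining chaperone genes were Dnajb11 and Dnajb9, DNAJ partners of BiP, Sdf2l1, a cofactor in the DNAJB11 complex, and Manf, a BiP-binding protein that is also secreted. Their log2 fold changes ran from -0.17 for Sdf2l1 to 0.19 for Dnajb9, with edgeR adjusted p from 0.606 to 0.991. The widest interval of the 34 genes was that of Sdf2l1, from -0.84 to 0.51.

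Among the 7 isomerase genes, which form and rearrange disulfide bonds or turn proline bonds, 0 were called by edgeR, 0 had an unadjusted p under 0.05 and DESeq2 called 0. P4hb, which encodes the founding protein disulfide isomerase, stood at 538, 568, 604 and 638 CPM in RPMI and at 620.1, 689.5, 596 and 607 CPM with pEtn. The ranges overlapped, and the interval was narrow (log2 fold change 0.10, 95% interval -0.10 to 0.29, edgeR adjusted p = 0.508). Ppib, encoding the ER cyclophilin, had a 95% interval of -0.15 to 0.24, and 25.0% of its annotated exon bases overlap Snx22 on the other strand. Pdia3, which works with the lectin chaperones on glycoproteins, had the highest log2 fold change of the 7 (0.21) and Creld2, which encodes an ER stress-induced protein with CXXC motifs, the lowest (-0.28), with edgeR adjusted p of 0.418 and 0.546.

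Calreticulin and calnexin hold freshly glycosylated proteins until they fold. Calr, the soluble lectin, stood at 604, 544, 878 and 952 CPM in RPMI and at 510.2, 844, 974 and 975 CPM with pEtn. Its replicate 2 gave the largest difference between media, and the ranges overlapped (log2 fold change 0.15, 95% interval -0.38 to 0.68, edgeR adjusted p = 0.729). Canx, the membrane lectin, was lower in 4 of 4 replicate numbers by a small amount, with 686 ± 92.5 CPM in RPMI and 620.0 ± 86.3 CPM with pEtn (SD, n = 4), and an adjusted p of 0.510 by edgeR.

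ERAD was the role with the most genes above zero, 6 of 8. Of these 8 genes edgeR called 1, and their median log2 fold change was 0.14. Over all genes tested, 5669 of 11862 were below zero and the median was 0.02. The further ERAD genes counted below did not share this lean, with 12 of 23 below zero and a median of -0.02. Whether 6 of 8 departs from the share over all genes was not tested. Os9 (ENSMUSG00000040462), whose lectin domain reads trimmed glycans on misfolded proteins, stood at 185, 161, 141 and 143 CPM in RPMI and at 221, 218, 206 and 203 CPM with pEtn. The media did not overlap. Its mean went from 157 ± 20.4 to 212 ± 8.94 CPM (SD, n = 4), a log2 fold change of 0.43 (SE 0.10, 95% interval 0.20 to 0.66, edgeR adjusted p = 0.0246), and 0.26, 0.44, 0.55 and 0.50 within replicate numbers 1 to 4. The call was lost in 6 of 8 fits that left out a library, those without RPMI replicates 3 or 4 or any of the 4 pEtn replicates (highest adjusted p = 0.0799, without RPMI replicate 3), and with replicates 3 and 4 summed (0.150). It held with replicates 3 and 4 summed and the block (0.0221).

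Edem1 (ENSMUSG00000030104), which trims mannose from misfolded glycoproteins and so marks them for OS9, stood at 246, 311, 288 and 283 CPM in RPMI and at 321, 374, 329 and 333 CPM with pEtn. Every pEtn library stood above every RPMI library, by a narrow margin. The media did not overlap in 3 of the 34 genes, Atf6, Os9 and Edem1, against 20.4% of all genes tested (9.74% with pEtn above and 10.6% with pEtn below). The log2 fold change of Edem1 was 0.27 (SE 0.10, edgeR adjusted p = 0.102) and it was called with the block (adjusted p = 0.0193). Sel1l, the scaffold that joins OS9 to the ubiquitin ligase, and Derl2, a membrane protein of the exit channel, were also higher in 4 of 4 replicate numbers. Sel1l went from 99.7 ± 10.2 to 119 ± 9.18 CPM and Derl2 from 42.2 ± 4.88 to 49.7 ± 3.85 CPM (SD, n = 4). They were not called without the block (edgeR adjusted p = 0.139 and 0.193) and were called with it (0.0335 and 0.0362). The other ERAD genes had log2 fold changes from -0.02 to 0.05 (edgeR adjusted p from 0.813 to 0.952). They were Syvn1, encoding the ubiquitin ligase itself, Herpud1, its stress-induced partner, Derl1 and Edem2.

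With the replicate number as a block, 7 of the 34 genes were called, 5 higher (Dnajc3, Edem1, Os9, Sel1l and Derl2) and 2 lower (Atf6 and Hyou1), against 32.3% of all genes tested, of which 15.8% were higher and 16.5% lower. With replicates 3 and 4 summed as well, 1 gene was called higher and 2 lower, against 8.71% higher and 10.7% lower of all genes tested in that fit (19.4% in either direction), since the calls of Dnajc3, Edem1, Sel1l and Derl2 were lost.

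Protein entry into the ER showed the narrowest range. Of the 6 translocon and signal peptidase genes, edgeR called 0, 0 had an unadjusted p under 0.05 and DESeq2 called 0. Log2 fold changes ran from -0.17 for Sec61a1, which encodes the channel itself, to 0.06 for Sec11c, a catalytic subunit of the signal peptidase. Sec61a1 was lower in 4 of 4 replicate numbers, with 329.7 ± 31.8 CPM in RPMI and 293 ± 15.4 CPM with pEtn (SD, n = 4), and an adjusted p of 0.259 by edgeR. Spcs2, a signal peptidase subunit, was also lower in 4 of 4 (from 249.9 ± 26.2 to 227 ± 22.4 CPM, SD, n = 4), with an adjusted p of 0.444 by edgeR. Sec61b, Ssr1 of the translocon-associated complex and Spcs3 of the signal peptidase had edgeR adjusted p from 0.652 to 0.968.

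Beyond the 34 genes, 138 tested genes of the same organelle were counted from lists of folding, ERAD, entry, glycosylation, exit and sensor genes. Of these 5 were lower and 0 higher by edgeR, or 3.62% beside the 12.8% of all genes. DESeq2 called 3 higher and 12 lower, and 19.1% of all genes. At an unadjusted p under 0.05, 9 were higher and 26 lower, with the share over all genes not counted. Without pEtn replicate 4, 0 of the 5 were called, and 0 with replicates 3 and 4 summed. With the replicate block 29 of the 138 were lower and 9 higher, beside 16.5% and 15.8% of all genes. Genes of glycan assembly and transfer were below zero in 18 of 20 cases, with a median log2 fold change of -0.20, against 5669 of all 11862 genes tested. In that list 1 gene was called without the block and 8 of 20, all lower, with it, where 16.5% of all genes were lower. The called gene was Stt3b, a catalytic subunit of the oligosaccharyltransferase, which went from 287 ± 25.1 to 227 ± 16.2 CPM (SD, n = 4; adjusted p = 0.0455 by edgeR). Srprb, the membrane-anchored subunit of the receptor that docks ribosomes, went from 47.6 ± 10.1 to 32.9 ± 2.26 CPM (SD, n = 4; adjusted p = 0.0468 by edgeR). The other called genes were weakly expressed. They were Wrb (present symbol Get1), which inserts tail-anchored proteins, from 6.60 ± 1.46 to 3.42 ± 0.433 CPM, Fkbp11, an ER prolyl isomerase, from 1.74 ± 0.451 to 0.676 ± 0.0991 CPM, and Kdelr3, a receptor that returns escaped ER proteins, from 1.59 ± 0.344 to 0.753 ± 0.168 CPM (SD, n = 4), with adjusted p of 0.0153, 0.0136 and 0.0366 by edgeR. Of the remaining lists, ERAD genes outside the 34 had 0 called by edgeR of 23 tested, with 4 at an unadjusted p under 0.05 and 2 by DESeq2. Fkbp11 was the 1 gene called of 30 further folding genes, Srprb and Wrb the 2 of 24 further entry genes, and Kdelr3 the 1 of 24 genes of ER exit and retrieval.

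In each of the chaperone and isomerase genes, the ratio of the highest to the lowest RPMI library was larger than the ratio of the means of the media. A ratio of extremes tends to exceed a ratio of means in genes that are not called, and the share over all genes was not counted. The summed level of the 34 genes was 7905, 8277, 10478 and 11241 CPM in RPMI replicates 1 to 4 and 7789, 10086.5, 10377 and 10443.5 CPM with pEtn. RPMI replicates 3 and 4 and pEtn replicates 2, 3 and 4 were high, and replicate 1 was low in both media. Among the 17 chaperone, isomerase and lectin genes, RPMI replicates 3 and 4 were the highest RPMI libraries in 15 and pEtn replicate 1 was the lowest pEtn library in 15. Over all 34 genes these counts were 25 and 24. The share over all genes tested was not counted, so the order may belong to the libraries and not to these genes. Creld2 stood at 38.8, 43.7, 80.7 and 79.2 CPM in RPMI and at 33.8, 49.4, 60.3 and 56.2 CPM with pEtn. Pdia6, an isomerase that also regulates the sensors, stood at 200.1, 200.1, 368 and 380.5 CPM in RPMI and at 181, 269, 315 and 302 CPM with pEtn. The ratio of the highest to the lowest RPMI library was 2.24 for Sdf2l1, 2.08 for Creld2 and 1.96 for Hspa5, against a median of 1.43 over all genes tested and 1.42 over the 34. Os9, Ern1 and Herpud1 ran the other way, with replicates 1 and 2 as the highest pair in both media.

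**Figure D3:**
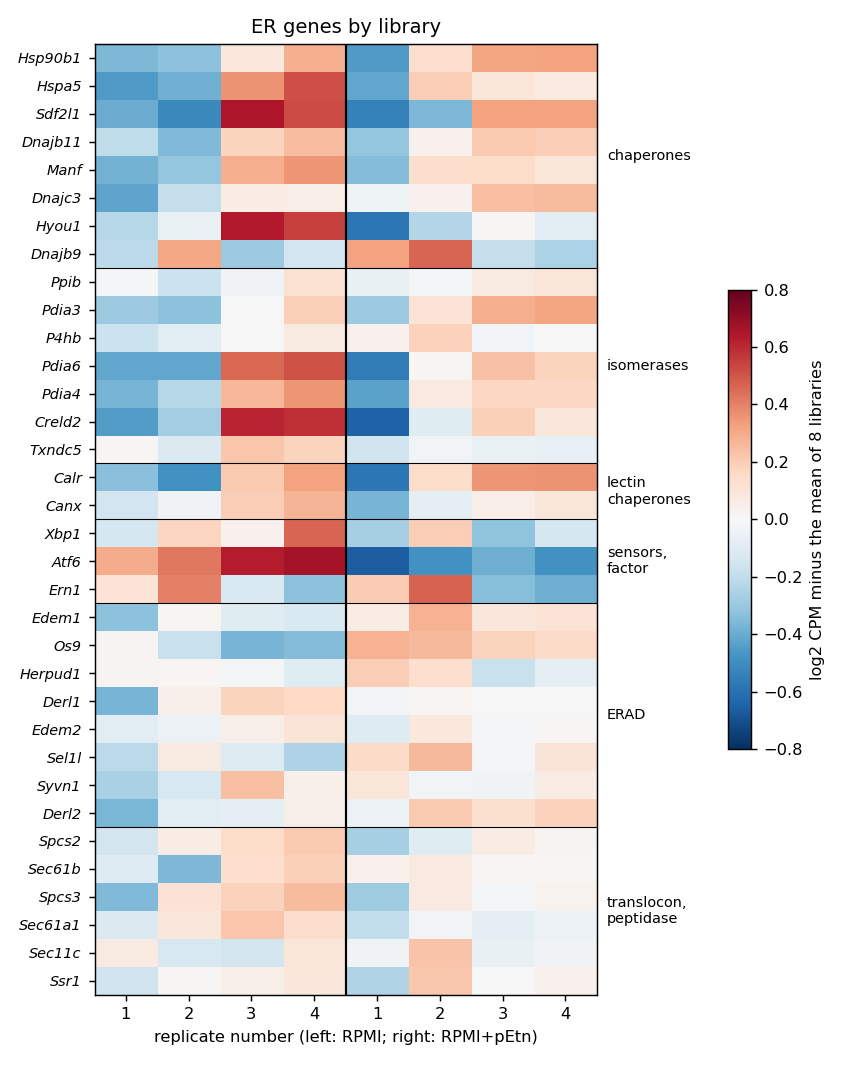
Log2 CPM of the 34 genes (rows, by role) in each library (columns, by replicate number), minus the gene's mean over 8 libraries. Red is above and blue below the mean. RPMI replicates 3 and 4 are the highest RPMI libraries in 15 of the 17 chaperone, isomerase and lectin genes and in 25 of the 34. Atf6 splits by medium.

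The difference between media in the 34 genes varied with the replicate number. The median log2 difference was -0.03, 0.18, -0.11 and -0.11 in numbers 1 to 4, against 0.03, 0.00, 0.02 and 0.02 over all genes tested. In number 2 the pEtn library was lower in 7 of 34 genes, and in numbers 3 and 4 in 22 and 24. Fitted on replicates 3 and 4 alone, 13 of the 34 genes were called lower and 5 higher, against 24.7% lower and 23.4% higher of all genes tested in that fit (48.1% in either direction), so the count is near that of all genes. On replicates 1 and 2 alone 0 of the 34 were called in either direction, against 0.264% of all genes. Replicates 3 and 4 of a medium were far closer to each other than any other pair. Their chi-square per gene was 11.2 in RPMI and 5.04 with pEtn, against 51.1 to 107 for the other pairs, so a fit on them alone understates the spread. The nuclear RNAs Malat1 and Neat1, read as signs of RNA quality, also differed between libraries. Malat1 stood at 19.7, 25.6, 7.03 and 6.73 CPM in RPMI and at 18.1, 22.2, 18.5 and 17.2 CPM with pEtn, and Neat1 at 30.5, 25.5, 4.55 and 3.84 CPM in RPMI and at 30.3, 35.9, 9.57 and 8.97 CPM with pEtn. RPMI replicates 3 and 4 were the lowest of all libraries in both nuclear RNAs. Among RPMI libraries they were the highest in 15 of the 17 chaperone, isomerase and lectin genes. Several of these genes, such as Hsp90b1 and Dnajc3, were higher still in pEtn replicates 3 and 4. The part of RNA quality in the result was not tested.

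Per length, in TPM, the 34 genes ran from 5.18 to 818 in their RPMI means. Ppib (818 ± 63.0 TPM), Pdia3 (804 ± 128), Hsp90b1 (762 ± 157), Calr (673 ± 172) and Hspa5 (638 ± 207) led in RPMI (SD, n = 4), and each of these lay within the spread of its neighbours in that order. P4hb followed at 535 ± 30.4 TPM and Canx at 381 ± 45.1 TPM. The lowest were Ern1 at 5.18 ± 1.18, Derl2 at 13.6 ± 1.35, Dnajb9 at 15.1 ± 3.04 and Syvn1 at 18.7 ± 2.62 TPM. Atf6 went from 52.5 ± 5.37 to 26.2 ± 1.67 TPM, from rank 28 to rank 30 of the 34.

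**Figure D4:**
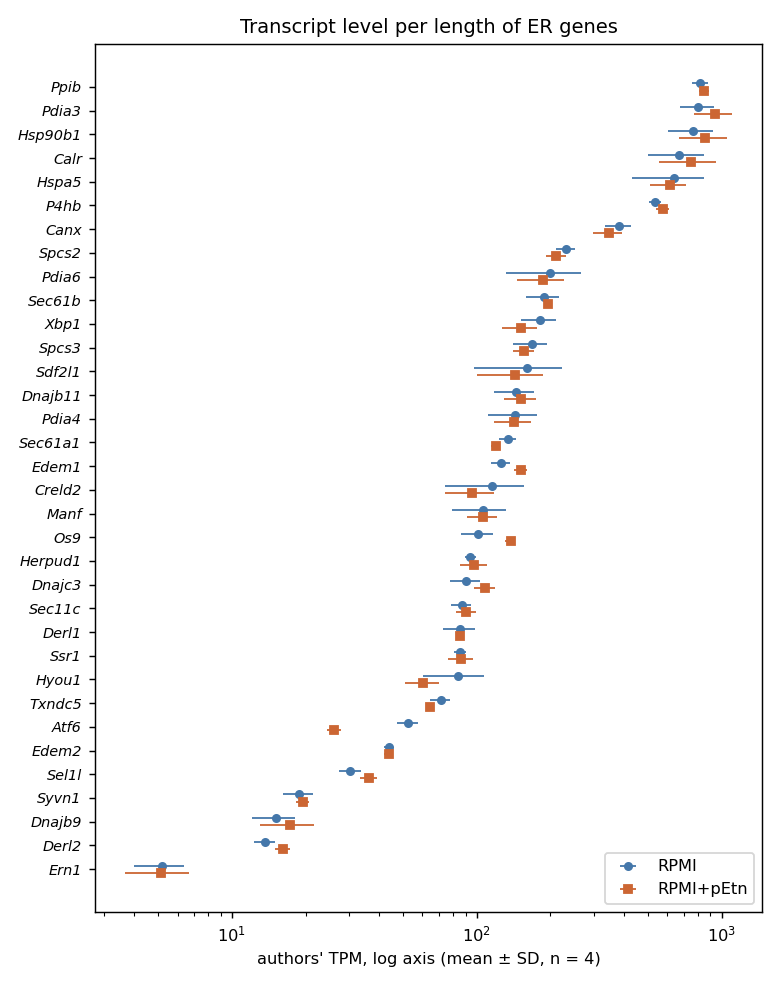
Level per length in the authors' TPM (x axis, log scale) of each of the 34 genes (y axis), ordered by the RPMI mean. Circles are RPMI and squares RPMI+pEtn, with SD over 4 libraries. Ppib at 818 TPM tops the order, Ern1 at 5.18 TPM ends it, and Atf6 has the clearest gap between media.

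The libraries carried the markers of their labelled cell type. The summed level of Cd8a, Cd8b1, Cd3d, Cd3e and Cd3g ran from 1233 to 1570.5 CPM in RPMI and from 1344 to 1849 CPM with pEtn. Markers of plasma cells, which are rich in ER, were low, and 2 of them were lower with pEtn. Of 7 B and plasma cell genes 1, Ms4a1, was at 0 in every library, Mzb1 averaged 0.0228 and 0 CPM, and the sum of the 7 ran from 3.11 to 6.36 CPM in RPMI and from 1.45 to 3.90 CPM with pEtn. Of the 3 tested, 2 were called lower, with adjusted p of 0.00196 for Sdc1 and 0.0371 for Igj by edgeR. Sdc1 fell from 1.98 ± 0.496 to 0.328 ± 0.103 CPM and Igj from 1.05 ± 0.491 to 0.285 ± 0.110 CPM (SD, n = 4). The remaining tested gene was not below zero and was not called. The 6 myeloid markers summed to 3.08 to 9.91 CPM in RPMI and to 5.67 to 19.1 CPM with pEtn, with Adgre1 at 0 throughout. Of the 4 CD4 lineage markers Cd4 averaged 0.317 and 0.124 CPM, and the sum, mostly Zbtb7b, ran from 15.5 to 25.1 and from 27.8 to 40.8 CPM. Zbtb7b, the 1 tested, rose from 20.1 ± 3.86 to 32.2 ± 5.17 CPM (SD, n = 4; adjusted p = 0.0262 by edgeR). Of the 3 NK cell markers, Ncr1 averaged 0 and 0.0469 CPM, and the sum, mostly Eomes, which activated CD8 T cells also express, ran from 349.6 to 615.5 CPM in RPMI and from 209 to 486 CPM with pEtn. The part of these cell types in the results was not tested. Library totals lay between 29223765 and 35504571 counts, and counts of the 34 genes from 286 for Dnajb9 upward.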

How the data were processed

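Bulk RNA-seq of 8 libraries was used, 4 per medium. Per the labels' protocols, SmartSeq chemistry with 15 cycles of amplification gave the cDNA of sorted, lysed cells. The submitters' processing notes name GRCm39. Sources used here do not give the aligner, counter, annotation or strand use, and overlapping genes may share reads. The authors deposited whole-number counts per gene, used for all main tests, and TPM and RPKM values; TPM served for levels and an alternative, RPKM for nothing. A further signal deposited by the authors, named CPM, equals the counts times a constant per library and was not used.

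Tests on the counts used edgeR 4.0.16 (R 4.3.3) with filterByExpr, TMM, robust quasi-likelihood F test without a block, Benjamini-Hochberg adjustment over all 11862 genes tested. SE and 95% intervals come from the F statistic. The procedure was tested on simulated counts. Deviations from group means correlated at 0.57, 0.55, 0.44 and 0.45 between same-numbered libraries 1 to 4 (all above 0.1). Between libraries of different number they correlated at most at 0.41. Same-numbered libraries were therefore treated as pairs in the blocked fit, although what a number means is not in the labels. For numbers 3 and 4 the margin was small. The blocked fit counts these much alike libraries as separate pairs, so it may understate the spread. Alternatives used DESeq2 1.42.0, limma 3.58.1, RLE scaling, other filters, the replicate block, replicates 3 and 4 summed or alone, and leaving out each library.

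Members and lists were chosen with earlier results of these data known. Values per library are given for genes called, for those whose media do not overlap, and for Ern1, Atf6, Xbp1, Hspa5, Hsp90b1, Calr and P4hb; some others are added as examples chosen after their values were seen. From each other list up to 4 called genes per direction are named, with Eif2ak3, Atf4 and Ddit3. Fam8a1 of those lists had no row under that symbol.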

Additional observations from a re-analysis of the deposited data

Results flagged for a closer look

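In 68 groups of 4 libraries (34 genes in 2 media), 2 held a library far from the other 3. Chance flags about 1 in 20 groups. Manf stood at 110.3 CPM in pEtn replicate 1, against 150.2 to 156 CPM in the other pEtn libraries. Sec11c stood at 122 CPM in pEtn replicate 2, against at most 103 CPM in the others.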

How the results depend on the processing

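Over 19 alternatives and 34 genes, 615 single-gene values kept their side of the threshold, 22 became called, 9 lost the call and 0 reversed a call. Atf6 remained called in all but the fit on replicates 1 and 2; Os9 lost its call in 8 (6 that left out a library, replicates 3 and 4 summed, and replicates 1 and 2 only).

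The count of the 34 genes called higher was 1, and 5 with the replicate block, 0 with replicates 3 and 4 summed, 0 in replicates 1 and 2 only and 5 in replicates 3 and 4 only; leaving out a library gave 0 to 1. The count called lower was 1, and 2 with the replicate block. It was 2 with replicates 3 and 4 summed and the block, where 10.7% of all genes were lower. It was 0 in replicates 1 and 2 only. In replicates 3 and 4 only it was 13, where 24.7% of all genes were lower. Leaving out a library gave 1 throughout. The other pathway genes called higher numbered 0, and 3 with DESeq2, 9 with the block, 4 with the block and replicates 3 and 4 summed and 11 in replicates 3 and 4 only; leaving out a library gave 0 to 1. Those called lower numbered 5, and 12 with DESeq2, 3 with no filter on low counts, 29 with the block, 0 with replicates 3 and 4 summed, 10 with both, 0 in replicates 1 and 2 only and 50 in replicates 3 and 4 only; leaving out a library gave 0 to 11, with 11 and 9 without RPMI replicates 1 and 2, 1 and 2 without RPMI replicates 3 and 4, and 2, 2 and 0 without pEtn replicates 1, 3 and 4. Restricting or summing libraries changes their number by construction; the cause of the other changes was not tested. With replicates 1 and 2 only, 32 of 12122 genes were called in all.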
